A study of Mus musculus with 4 samples.

Results

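Pdgfra+ Olig1+ cells were examined in 1 droplet library of late embryonic mouse forebrain. A barcode, which stands for 1 captured cell, was chosen by 4 thresholds. It needed at least 1000 detected genes, at most 10% of its unique molecular identifiers (UMIs) from mitochondrial genes, at least 1 UMI of Pdgfra and at least 2 UMIs of Olig1. The rule kept 324 barcodes, called members below, of the 1148 that passed the gene and mitochondrial thresholds in the library labelled GE (ganglionic eminence) E18.5. That is 28.2% of them (25.6 to 30.9, exact binomial interval), and the series holds 6341 barcodes in all. Pdgfra and Olig1 were selected on, so their levels and every contrast of members with other barcodes are descriptions.

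Oligodendrocyte precursors are the dividing glial cells that later form myelin. They carry Pdgfra, the receptor for platelet-derived growth factor, which keeps them dividing and migrating, and they use the transcription factors Olig1, Olig2 and Sox10. In the embryonic forebrain the earliest of them come from ventral progenitors and later ones are also made by dorsal progenitors. Intermediate glial progenitors with Egfr and Dll3 stand before them, and Gpr17 and Bcas1 mark precursors that are committing to differentiate.

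The study sequenced forebrain progenitors of mouse embryos from a cross of heterozygous Nestin-GFP with homozygous DCX-mRFP animals. All 4 groups carry both reporters, and the cells were sorted for green fluorescence. The groups are cortex and GE at E15.5 and at E18.5, each with 1 library, so differences between barcodes are described without a test and have no replicates behind them. How many embryos went into a library is not stated in the labels, and sorting on a Nestin reporter leaves out cells that have lost it.

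Region labels and regional genes disagreed. In the non-member barcodes of the library labelled GE E18.5, Emx1, a transcription factor of the dorsal forebrain, stood at 43.1 CPM (counts per 1000000 UMIs), against 1.17 CPM in those labelled cortex E18.5. Dlx2, a transcription factor of the ventral forebrain, stood at 213 and 788 CPM. The names of the deposited files also give the opposite region for every library, so each is called here by its label only. The library labelled GE E18.5 held 14528712 UMIs, and it shared 1 barcode with the one labelled cortex E15.5 and 4 with the one labelled cortex E18.5, none of them a member in both.

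Members held a median of 11200.5 UMIs and 3612.5 genes, and the other 824 barcodes 9712 UMIs and 3495.5 genes. A few members were very deep. The 31 members above 30000 UMIs, the deepest with 102043, held 29.6% of the members' UMIs, while 25 other barcodes above that depth held 11.1% of theirs. Of 11 barcodes scored as doublet-like, 6 were members. Transcripts of Xist and of Y-linked genes occurred together in 13.9% of members and in 10.9% of the others.

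The promoters of 3 genes that the results turn on are shown as RefSeq gives them on GRCm38.p6, 250 bases before and 50 bases after the start. They were searched on both strands for the E-box CAGCTG, a target of basic helix-loop-helix factors, and for the SOX motif ACAAAG or ACAATG. Matches are in capitals. The promoter of Cspg4 was also searched, held neither motif and is not shown. Of 32851 mouse promoters of that length, 16.3% hold the E-box and 28.6% the SOX motif, so a match is a description and not a site.
Pdgfra, chr5:75152001-75152300, plus strand, no match: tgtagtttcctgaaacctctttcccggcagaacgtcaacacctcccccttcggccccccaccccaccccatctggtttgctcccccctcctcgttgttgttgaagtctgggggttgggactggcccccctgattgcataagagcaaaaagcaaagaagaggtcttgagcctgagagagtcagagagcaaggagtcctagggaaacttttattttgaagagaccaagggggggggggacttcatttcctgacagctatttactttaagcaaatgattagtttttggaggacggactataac
Lhfpl3, chr5:22745804-22746103, plus strand, 2 E-boxes: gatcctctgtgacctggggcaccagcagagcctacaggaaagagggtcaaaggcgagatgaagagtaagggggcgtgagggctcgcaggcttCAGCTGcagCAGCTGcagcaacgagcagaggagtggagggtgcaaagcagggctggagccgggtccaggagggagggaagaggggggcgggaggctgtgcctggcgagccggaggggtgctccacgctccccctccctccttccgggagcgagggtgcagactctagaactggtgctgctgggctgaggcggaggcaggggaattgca
Olig2, chr16:91225300-91225599, plus strand, 1 SOX motif on the minus strand: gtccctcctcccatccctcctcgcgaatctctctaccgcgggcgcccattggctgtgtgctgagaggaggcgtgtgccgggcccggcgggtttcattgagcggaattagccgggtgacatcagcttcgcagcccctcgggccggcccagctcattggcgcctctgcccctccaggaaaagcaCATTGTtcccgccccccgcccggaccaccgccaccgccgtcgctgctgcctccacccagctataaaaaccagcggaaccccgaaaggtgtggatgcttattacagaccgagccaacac

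The rule values spread widely among the members. Pdgfra had 1 UMI in the lowest member, a median of 3 and 36 in the highest, and 69 members (21.3%) had exactly 1. Olig1 had 2 UMIs in the lowest member, a median of 28 and 89 in the highest. A single barcode sat at both minimums, and it held no UMI of Sox10, Lhfpl3 or Egfr.

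Barcodes just outside the rule differed from the members in the same library. The 293 barcodes with 2 or more Olig1 UMIs and no Pdgfra UMI had Sox10 at 19.8 CPM and Lhfpl3, a tetraspan membrane protein, at 2.79 CPM. Members had 126 and 109 CPM of these genes. Egfr, the epidermal growth factor receptor, stood at 186 CPM in those 293 barcodes and at 149 CPM in members. The 13 barcodes with Pdgfra and 1 Olig1 UMI had 1 Sox10 UMI in all and Dlx2 at 600 CPM. Well inside the rule, at 3 or more Pdgfra and 6 or more Olig1 UMIs, 200 members had Sox10 at 159 CPM and Lhfpl3 at 155 CPM.

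The label oligodendrocyte precursor held for some of the members and not for all. When the library's barcodes were clustered without Pdgfra and Olig1, 117 members (36.1%, 30.9 to 41.6) fell in an oligodendrocyte precursor-like cluster, which held 120 barcodes in all. Its leading genes were Lhfpl3, Cntn1 and C1ql1, with Pdgfra, Sox10 and Gpr17 also among the top 10. The markers that named the cluster included Pdgfra and Olig1, so its name is not independent of the rule. A further 89 members were in a glial intermediate progenitor-like cluster led by Cdkn1c, Dll1, a Notch ligand, and Prss23, with Dll3, another ligand of that family, also among its top 10. Clusters without a name held 30 members beside S-phase histone genes, with Dlx1 also among the top 10, and 30 beside G2 and M phase genes. Another 36 were in a deep cluster of mixed genes without a name, where the members' median was 38838 UMIs. The astrocyte lineage-like and cortical intermediate progenitor-like clusters held 9 members each. The GABAergic neuron-like, cortical excitatory neuron-like and mural-like clusters held none. At the lower resolution of 0.6 the precursor-like cluster held 63.0% of members, 204 among 261 barcodes.

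Levels within the members followed those clusters. Sox10 stood at 297 CPM in the precursor-like members, 148 in the intermediate-like members and 44.5 in those of the deep cluster. Lhfpl3 stood at 316, 25.6 and 55.2 CPM in the same order. Egfr had the other order among the named clusters, at 72.1 CPM in precursor-like members and 323 CPM in intermediate-like ones. Dll3 was high in both, at 706 and 863 CPM, and the proliferation gene Mki67 stood at 64.2 and 15.1 CPM there against 437 and 367 CPM in the S-phase and G2 and M phase clusters. Clustering used these genes, so these are descriptions.

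**Figure D1:**
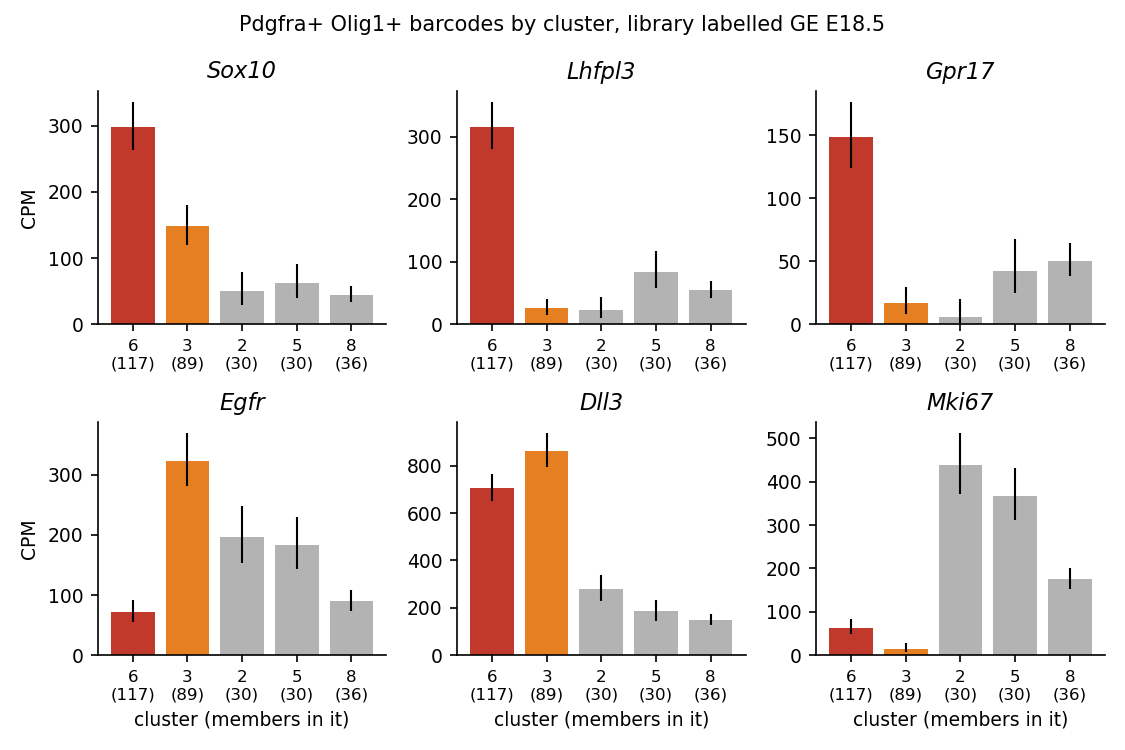
CPM of 6 genes in the 302 Pdgfra+ Olig1+ barcodes of 5 clusters, with exact Poisson intervals that cover counting error only. Cluster 6 is precursor-like, cluster 3 intermediate progenitor-like and clusters 2, 5 and 8 have no name. Sox10, Lhfpl3 and Gpr17 peak in cluster 6, Egfr in cluster 3 and Mki67 in clusters 2 and 5.

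Against the other 824 barcodes, 172 of 7853 measured genes were at least 2-fold higher in members (2.19%) and 211 at least 2-fold lower (2.69%), with a median log2 ratio of 0.01. A gene counted as measured at 20 CPM in either set. Of the oligodendrocyte precursor list, 14 of 21 measured genes were higher and 0 lower, with a median log2 ratio of 2.16; Pdgfra and Olig1 are among the 14. Intervals on ratios are exact binomial, and intervals on CPM exact Poisson. Both cover counting error only. Without barcodes above 30000 UMIs, 245 genes were higher and 432 lower, and 171 and 205 of these were among the genes named by the whole set.

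The higher genes named here outside the transcription factors encode membrane, matrix, secreted and intracellular proteins. Lhfpl3 had 422 UMIs in members (109 CPM) and 17 in others (2.19 CPM), a ratio of 49.6 (30.6 to 86.0). Gpr17, a receptor of committing precursors, had 228 and 7 UMIs, a ratio of 65.1 (31.1 to 164). Cspg4, the NG2 proteoglycan of precursors, had 227 and 43 UMIs (58.5 and 5.55 CPM), a ratio of 10.6. Few Gpr17 or Lhfpl3 UMIs of the library thus lay outside the members. Cntn1, an adhesion molecule, was 19.5-fold higher, and the matrix proteins Matn4 and Tnr stood at 38.9 and 25.5 CPM in members and 1.81 and 1.42 CPM in others. C1ql1, a secreted protein, stood at 159.6 and 13.3 CPM, and Pcdh15, a cadherin, was 10.2-fold higher. Enpp2 (autotaxin) stood at 106 and 7.09 CPM, Lnx1, a ubiquitin ligase, was 9.21-fold higher, the kinase Prkcq 15.1-fold and Ppp1r16b, a phosphatase regulator, 12.8-fold.

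Among lineage transcription factors, 7 of 24 measured genes were higher, the rule gene Olig1 included, and 0 lower. Sox10 had 490 UMIs in members (126 CPM) and 74 in others (9.54 CPM), a ratio of 13.2 (10.4 to 17.1). Olig2 had 921 and 262 CPM, a ratio of 3.52 (3.33 to 3.72). Myt1, a zinc finger factor of the lineage, was 2.55-fold higher.

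Genes of myelination were at or near 0. Of the committed and myelinating list, Bmp4, Enpp6, Mag, Mog, Mobp, Mal and Opalin had no UMI in any member, and 3 UMIs would be 0.774 CPM. Mbp, myelin basic protein, stood at 10.8 CPM, under the minimum. The early genes of that list were present. Bcas1 stood at 100.1 CPM in members and 6.45 CPM in others, Cnp was 4.63-fold higher (245.5 and 53.0 CPM) and Itpr2 3.45-fold, and these with Gpr17 are the 4 of 11 measured that were past the fold.

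Signalling genes gave a mixed picture. In the PDGF, FGF, EGF and ERK list, 5 of 19 were higher and 2 lower, and Pdgfra itself is among the 5. Spry4 and Spry1, inhibitors that are induced by growth factor signalling, were 4.13-fold and 3.21-fold higher. Pdgfrb, the receptor of mural cells, was at 8.77 CPM in members and 41.8 CPM in others. In the Notch list 2 of 16 were higher, the ligands Dll3 (424 and 86.3 CPM, 4.91-fold) and Dll1 (2.74-fold), and 2 were lower, the receptors Notch3 and Notch2 (ratios 0.403 and 0.472). The BMP, ID and WNT list had 5 of 13 lower and 1 higher: Id3, an inhibitor of helix-loop-helix factors, stood at 253.5 and 650.3 CPM and Bmp7 at 59.3 and 19.0 CPM. In the Hedgehog list, 0 of 6 were higher and Boc, a co-receptor, was lower.

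Lists of other cell types held lower genes in different proportions. The astrocyte lineage list had 0 of 21 higher and 14 lower, with a median log2 ratio of -1.36. Aqp4, the astrocyte water channel, stood at 12.6 CPM in members and 37.9 CPM in others. Radial glial genes had 4 of 21 lower, cortical excitatory neuron genes 7 of 12 and GABAergic neuron genes 9 of 17, with none higher in the 3 lists. The lower genes were led by vascular genes, Rgs5, Vtn, Igf2, Igfbp7, Col4a1, Higd1b and Cldn5, whose other-barcode UMIs included a mural-like cluster of 15 barcodes with no member. Ccdc80, a secreted matrix protein, followed at a ratio of 0.259. Endothelial markers Kdr, Flt1, Cdh5, Tek, Tie1, Esam, Emcn, Slco1a4, Ly6c1 and Ly6a had no UMI in members. Nor had 11 of 14 microglial markers, C1qa, Csf1r and Tyrobp among them. C1qa, Csf1r and Tyrobp had no UMI in the other barcodes of the library either, so their absence does not set members apart. Summed levels of mural markers were 102 CPM in members and 361 CPM in others, and Pdgfra and Cspg4 belong to the fibroblast and mural lists as well.

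**Figure D2:**
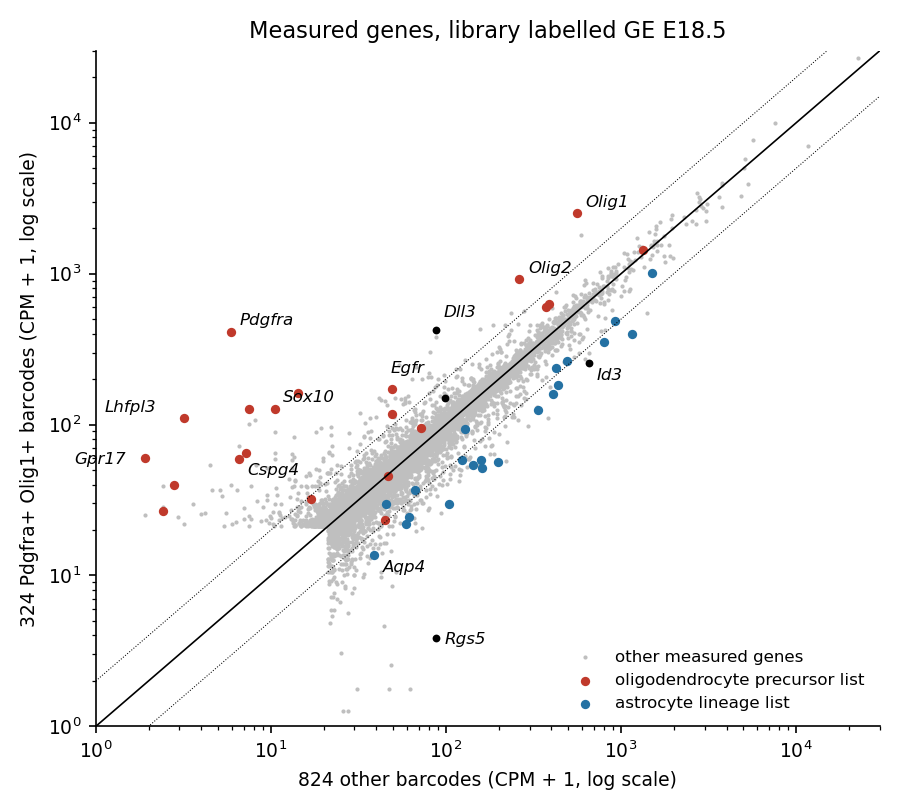
Each point is a measured gene, with its level in the 824 other barcodes across and in the 324 members up, as CPM + 1 on log axes. Solid line, equal levels; dotted lines, 2-fold; black, named genes of neither list. Most precursor genes in red lie above the upper dotted line, Pdgfra, Gpr17 and Lhfpl3 farthest, and most astrocyte genes in blue lie below the solid line.

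Shares of barcodes with a gene were compared at equal depth. Each barcode was thinned to 4000 UMIs, which no barcode of this library fell short of. Sox10 was then found in 37.0% of members (31.8 to 42.5), in 6.48% of the Olig1-positive barcodes without Pdgfra, in 1.60% of astrocyte lineage-like barcodes and in 0.671% of GABAergic neuron-like ones, which should lack it. Before thinning the members' share was 61.1%. Gpr17 was in 15.1% of members, 0.683% of the Pdgfra-negative set and 0 of 149 GABAergic neuron-like barcodes (at most 2.45%). Bcas1 was in 30.6%, 3.75% and 1.34%. Egfr was not highest in members: 34.9% of members, 43.0% of the Pdgfra-negative set and 45.6% of astrocyte lineage-like barcodes had it, with overlapping intervals, against 4.03% of GABAergic neuron-like ones. The median depths before thinning were 11200.5, 12035, 8036 and 5423 UMIs in that order of sets.

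**Figure D3:**
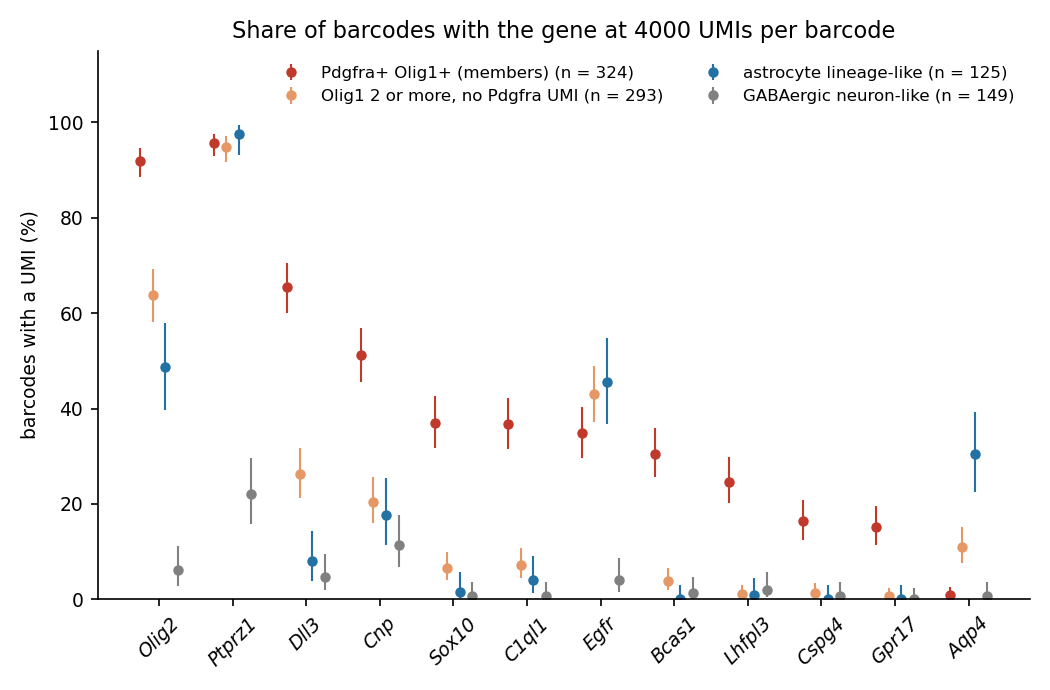
Share of barcodes with at least 1 UMI of each gene after thinning to 4000 UMIs, with exact binomial intervals. Red, members; orange, barcodes with Olig1 and no Pdgfra UMI; blue, astrocyte lineage-like; grey, GABAergic neuron-like barcodes. Sox10, C1ql1, Bcas1, Lhfpl3, Cspg4 and Gpr17 are highest in members, while the Egfr shares of the first 3 sets overlap.

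Set beside the 125 astrocyte lineage-like barcodes that are not members, 541 of 8008 measured genes were higher in members (6.76%) and 576 lower (7.19%). Dll3 was 22.5-fold higher (424 and 18.8 CPM) and Sox10 60.4-fold, although Sox10 had only 2 UMIs on the astrocyte side (interval 16.6 to 500.2). Gadd45g, a growth arrest gene active in neural progenitors, was 16.1-fold higher. Bcas1 had 388 UMIs against 0. Lower genes were Pla2g7 (28.9 and 424 CPM), Sparcl1 (158 and 1719 CPM), Id3 (253.5 and 2764 CPM) and Aqp4 (12.6 and 168 CPM). These genes were among the top 10 of the astrocyte lineage-like cluster, and Pla2g7, Sparcl1 and Aqp4 helped to name it. Their lower level in members was thus built into the comparison. The astrocyte lineage-like set was defined by clustering these same data, so the higher genes are not independent of that choice either. Of GABAergic neuron genes, 12 of 15 were higher and 0 lower, and of cortical excitatory neuron genes 8 of 11 were higher and 1 lower. Against all other barcodes of the library, no gene of either list was higher in members. Tubb3, a neuronal tubulin, was higher by 16.6-fold, Neurog2 by 73.7-fold (20.3 to 610.2) and Dlx1 by 59.1-fold (16.3 to 489), the last 2 from 2 UMIs on the astrocyte side. Neurog2 was found in 80 members, with 54.5% of its UMIs in the 36 members of the deep cluster, a share that reflects their depth as well as level. Of the 479 Dlx1 UMIs, 8 were in precursor-like members.

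Sox10 and Egfr divided the members without excluding each other. At 4000 UMIs, 120 members had Sox10, 113 had Egfr and 39 had both, a share with an interval of 8.70% to 16.1%, where the product of the 2 single shares is 12.9%. A further 130 members (40.1%) had neither, and their median depth before thinning was 13682 UMIs. Before thinning, Sox10 was found in 61.1% of all members and Egfr in 63.3%. The sets thus depend on the depth, and a member without a UMI of a gene may still express it. Of the 81 members with Sox10 only, 53 were in the precursor-like cluster and 15 in the intermediate-like one. Of the 74 with Egfr only, 7 and 34 were.

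The 4 sets carried different precursor genes. Lhfpl3 stood at 315 CPM in members with Sox10 only, 184 with both, 22.1 with Egfr only and 119 with neither. Cspg4 ran 175, 33.5, 22.1 and 44.6 CPM in the same order, and Gpr17 ran 175 and 33.5 CPM, then no UMI with Egfr only (upper limit 16.3 CPM), then 54.6 CPM. Cspg4 and Gpr17 were thus high with Sox10 only. Gas1, a Hedgehog co-receptor, was highest with Egfr only and lowest with both, at 215, 142, 567 and 290.2 CPM in the same order. The Notch ligand Dll1 was highest where Egfr was found, at 460.5 CPM with both and 385 CPM with Egfr only, against 183 CPM with Sox10 only. Its intervals in those sets with Egfr, 347 to 599 and 308 to 475 CPM, lay above the 134 to 244 CPM of Sox10 only.

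Of 4746 genes measured at 50 CPM between the 120 members with Sox10 and the 204 without, 145 were higher (3.06%) and 158 lower (3.33%). The precursor list had 11 of 20 higher and 0 lower, Sox10 itself included. Gjb1, a gap junction protein of oligodendrocytes, Car8, Opcml and Omg, an oligodendrocyte glycoprotein, led the higher genes at 8.92-fold, 5.10-fold, 5.10-fold and 5.10-fold, from 21 to 33 UMIs. Dlx2 and Dlx1 were lowest, with 7 and 8 UMIs against 187.6 and 205 CPM without Sox10 (ratios 0.101 and 0.105). Sp9, another gene of ventral interneuron progenitors, had a ratio of 0.119 (0.0235 to 0.370, from 3 UMIs). S-phase genes were lower in 7 of 19 and G2 and M phase genes in 7 of 16, for example the replication factor Mcm3 at 0.243 and the cyclin Ccnb2 at 0.273.

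Between the 113 members with Egfr and the 211 without, 51 of 4679 genes were higher (1.09%) and 112 lower (2.39%), Egfr itself among the 51. The precursor list had 0 of 19 higher and 10 lower. Gpr17 stood at 11.6 and 100.9 CPM, Cntn1 at 43.4 and 230.8 CPM and Cspg4 at 26.1 and 94.8 CPM. Kitl, the ligand of the receptor Kit, was 2.59-fold higher and Dll1 2.15-fold, and the other leading genes rested on 19 to 25 UMIs. Under the stricter rule of 2 Pdgfra and 3 Olig1 UMIs, 100 genes were higher and 173 lower.

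Cycling cells made up like shares of members and of other barcodes, with overlapping intervals. Mki67 or Top2a, genes of dividing cells, was found at 4000 UMIs in 36.4% of members (31.2 to 41.9) and in 35.0% of the others (31.7 to 38.3). Unthinned, the shares were 48.1% and 46.5%. In the library labelled cortex E18.5 the same shares were 35.6% of 146 members and 51.2% of 2672 others, after leaving out 9 and 277 barcodes under 4000 UMIs, and unthinned they were 43.2% and 56.1%. Between members with and without these 2 genes, 254 of 4764 genes were higher (5.33%) and 122 lower (2.56%), with 17 of 21 S-phase genes and 24 of 24 G2 and M phase genes higher, Mki67 and Top2a themselves among the 24. Sox10 was lower in cycling members (83.2 and 253.5 CPM, ratio 0.328), as were Myt1 (0.308) and Itpr2 (0.248), while Pdgfra stood at 457 and 569 CPM and Cspg4 at 64.5 and 74.9 CPM. Dmrta1, a dorsal forebrain factor, was the lowest named gene at a ratio of 0.115 (0.0228 to 0.358, from 3 UMIs). Free RNA in the droplets can add UMIs to any barcode, and its part in these shares was not tested.

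The rule found few barcodes elsewhere. It kept 155 of 3104 barcodes (4.99%, 4.25 to 5.82) in the library labelled cortex E18.5, 32 of 1168 (2.74%) in that labelled cortex E15.5 and 27 of 876 (3.08%) in that labelled GE E15.5. Median depths of these members were 9579, 39679 and 60471 UMIs, so a threshold of 1 or 2 UMIs asks less of an E15.5 barcode. Sox10 stood at 164 CPM in members labelled cortex E18.5, and at E15.5 it stood at 34.1 CPM in members labelled cortex and 46.5 CPM in members labelled GE. Lhfpl3 stood at 140.4, 23.2 and 32.2 CPM. Both genes were higher in members of either E18.5 library than of either E15.5 library. Because the depths differ, no fold is given.

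Members labelled cortex E18.5 differed from their own neighbours by many of the same genes. There, 340 of 7660 measured genes were higher (4.44%) and 218 lower (2.85%). Of the higher genes, 149 were shared, which is 86.6% of those in the library labelled GE E18.5 and 43.8% of those in the library labelled cortex E18.5. Of the lower genes, 91 were shared, 43.1% and 41.7% in that order, and no gene was past the fold in opposite directions. The precursor list had 17 of 21 higher there and 14 of 21 higher here, with medians of 3.81 and 2.16. The other barcodes of the 2 libraries differ, with Sox10 at 1.26 CPM in those labelled cortex E18.5 and 9.54 CPM in those labelled GE E18.5.

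**Figure D4:**
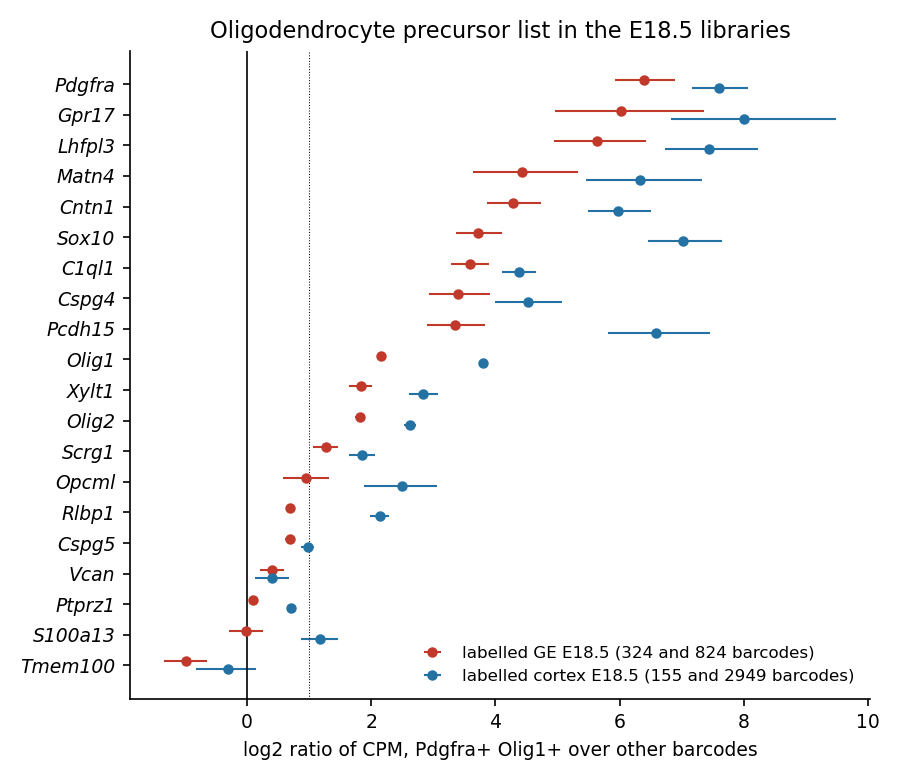
Log2 ratio of CPM in Pdgfra+ Olig1+ over other barcodes for the 20 genes of the precursor list measured in both E18.5 libraries, with exact binomial intervals that cover counting error only. Red, labelled GE E18.5; blue, labelled cortex E18.5; dotted line, 2-fold. Blue points lie to the right of red ones for every gene shown, and Tmem100 is left of 0 in both.

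The members of the 2 E18.5 libraries were also compared directly. Of 7759 measured genes, 140 were higher in members labelled GE E18.5 (1.8%) and 49 lower (0.632%). Thinning to 4000 UMIs gave 360 and 154, and the stricter rule gave 241 higher genes. The precursor list, which includes the 2 rule genes, had 0 of 22 past the fold in either direction and a median of -0.10, a share close to that over all genes. Its widest ratios were those of Rlbp1, a retinoid-binding protein (628 and 332 CPM, ratio 1.89, 1.71 to 2.10), and S100a13, a calcium-binding protein (44.9 and 81.8 CPM, ratio 0.549, 0.428 to 0.705). Pdgfra, which the rule used in both libraries, stood at 411 and 401 CPM. Cspg4 stood at 58.5 and 54.8 CPM (ratio 1.07, 0.815 to 1.42) and Sox10 at 126 and 164 CPM (0.769, 0.653 to 0.907). With 1 library a side, library and region cannot be told apart.

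Dorsal genes were higher in members labelled GE E18.5, 10 of 12 measured, with a median log2 ratio of 3.36. Emx1 had 108 UMIs (27.9 CPM) against 3 (2.31 CPM), a log2 ratio of 3.59 and a ratio interval of 4.01 to 59.3. Eomes, a factor of cortical intermediate progenitors, had 388 UMIs against 0, a log2 ratio of at least 5.43 with the 0 taken at 3 UMIs. Neurog2, a dorsal proneural factor, had 598 against 7 UMIs, a ratio of 28.6 (13.8 to 71.3). Neurod6, Hopx and Neurod2 had 192, 132 and 128 UMIs against 1 each. Tnc, a matrix protein of radial glia, was 5.22-fold higher, the transporter Slco1c1 7.65-fold, Tagln2 6.09-fold, Cdon, a Hedgehog co-receptor, 4.20-fold and the glutamate receptor Gria1 11.9-fold (3.97 to 58.7).

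Much of that dorsal signal lay in few members. Eomes was found in 37 members (11.4%), and 225 of its 388 UMIs were in the 36 members of the deep cluster without a name. That cluster also held 66.1% of the members' Neurod6 UMIs, 54.5% of Neurog2 and 51.9% of Emx1, and 54 of the 490 Sox10 UMIs. It held 63.0% of the Tnc UMIs and 61.4% of those of Hopx, while the precursor-like members held 21 of the 500 Tnc UMIs. Gria1 was found in 22 members. The members of the deep cluster hold many UMIs each, so these shares of UMIs reflect depth as well as level. For scale, the 31 members above 30000 UMIs, in whichever cluster, held 29.6% of all UMIs of the members. Without barcodes above 30000 UMIs the dorsal median was 1.34, and Neurod6 had a log2 ratio of 3.38, Emx1 of 2.77 and Neurog2 of 4.22. Within the precursor-like cluster, 117 members had Emx1 at 13.5 CPM (12 UMIs) and Eomes at 11.3 CPM (10 UMIs). GABAergic neuron-like barcodes of the library had 1.33 and 7.99 CPM of these genes. All of these levels rest on few UMIs, so the sets are not ranked by them. The part of doublets in these values was not tested; without doublet-like barcodes 165 genes were higher and 51 lower.

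Ventral genes were lower in members labelled GE E18.5, 10 of 16 measured, with a median of -1.27. Six3 had 9 UMIs against 85 (ratio 0.0354, 0.0156 to 0.0704) and Nkx2-1, a factor of the medial eminence, 9 against 66 (0.0456). Crym had 1 UMI against 56. The GABAergic lineage genes Dlx1 and Dlx2 stood at 124 and 131 CPM against 350.3 and 421 CPM, and Dlx6os1, a noncoding RNA near that gene family, at 24.8 and 103 CPM. Dlx2 was unevenly spread among the members here, at 12.4 CPM in the precursor-like cluster, 152 CPM in the intermediate-like cluster and 454 CPM in the S-phase cluster. Npy, a neuropeptide, had 155 and 274 UMIs, and it was found in 30 of the members here. Without barcodes above 30000 UMIs the log2 ratios of Crym, Nkx2-1 and Npy went from -7.39, -4.46 and -2.40 to -4.85, -2.58 and -1.53. Gsx1, a homeobox gene of ventral progenitors, was lower than in members labelled cortex E18.5 (78.7 CPM) but higher than in neighbouring barcodes: members had 35.6 CPM and the other barcodes of the library 3.61 CPM, a ratio of 9.85 (6.53 to 15.4).

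**Figure D5:**
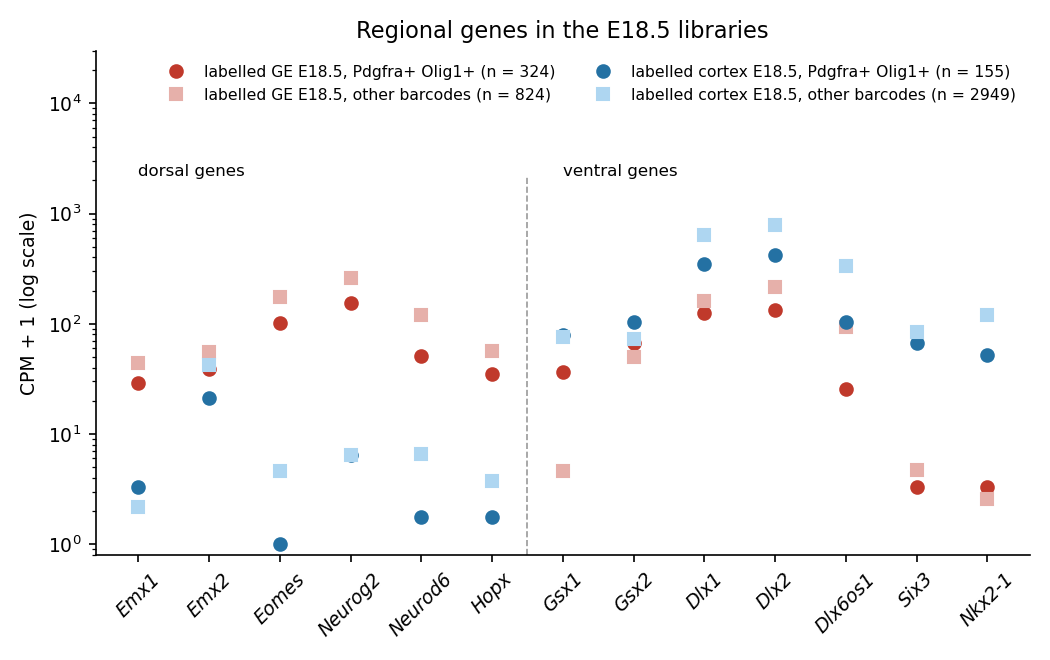
Levels of 6 dorsal and 7 ventral genes as CPM + 1 on a log axis in members (circles) and other barcodes (squares) of the libraries labelled GE E18.5 (red) and cortex E18.5 (blue). Red circles lie above blue ones for the dorsal genes and below them for the ventral genes, and Gsx1 is the one ventral gene where the red circle is far above the red square.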

How the data were processed

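The deposited values are whole-number UMI counts for 27998 genes in each barcode. Per the submitters' processing notes the tools were Cell Ranger 1.3.1 and Seurat (no version), with the build mm10. Cells were captured with 10x Genomics 3' v2 chemistry, per the labels' protocols. For the annotation release and for the rule that called cells, nothing is given in the sources used here.

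UMIs were summed over the barcodes of a set and divided by the set's total without 13 mitochondrial, 85 ribosomal protein and 10 haemoglobin genes, giving CPM. With 1 library per group no test was made, cells were not used as replicates, and a gene was called at a ratio of 2. A gene at 0 on 1 side was set to 3 UMIs for its ratio. Intervals are 95%. Splits of members used barcodes thinned to 4000 UMIs and a minimum of 50 CPM. Clustering used 2000 variable genes, 30 principal components, 20 neighbours and Leiden resolution 1 (leidenalg 0.10.2, igraph 0.11.9, scikit-learn 1.9.0), without Pdgfra and Olig1. A cluster was named from at least 3 detected markers of its class. Doublet-like barcodes (0.8% per 1000) were kept, and left out as an alternative. edgeR 4.0.16 gave the TMM scaling only. Other steps used Python 3.11.15, numpy 2.4.6, pandas 2.3.3 and scipy 1.17.1. The comparison was tested on simulated data.

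Members, lists and rules were chosen with earlier results of these data known. Named genes are 16 fixed ones, the 12 higher and 8 lower of members against others (8 and 8 between libraries and against astrocyte lineage-like barcodes, 6 and 6 in each split) with the largest log2 ratio after adding 10 CPM, and up to 4 per list; not every gene the rule names is printed. Genes of the Sox10 and Egfr sets were singled out after their values were seen. Promoter positions and sequences are from RefSeq on GRCm38.p6, which matched 4 of 6 genes looked up.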

Additional observations from a re-analysis of the deposited data

How the results depend on the processing

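Against other barcodes, 172 genes were higher and 211 lower in members. Lower genes numbered 453 with the mean of each barcode's own CPM and 432 without barcodes above 30000 UMIs. Thinning to 4000 UMIs gave 291 and 520, a minimum of 50 CPM 90 and 104, and no minimum other than 10 UMIs 490 and 1131. Between members of the E18.5 libraries, the stricter rule gave 241 higher genes, thinning 360 and 154, a minimum of 50 CPM 42 and 25, and no minimum 791 and 209. The share of barcodes in the rule was 22.0% under the stricter rule and 19.4% after thinning. The cycling share was 48.1% unthinned, and the precursor-like cluster held 63.0% of members at resolution 0.6. The other 27 values for these results moved by less than 1.5 times or stayed within their interval.

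Reversed signs were few. Higd1b had a log2 ratio of 0.57 without the mural-like cluster. Jag1 between members of the E18.5 libraries was 0.10 after thinning. Against astrocyte lineage-like barcodes the medians of mural and fibroblast markers, lists that hold Cspg4 and Pdgfra, were positive in the main setting. That of mural markers was -2.38 with mean CPM, -2.24 after thinning and -1.12 without the minimum. That of fibroblast markers was -0.28 without the minimum. Of the values for single genes and lists, 2675 kept their size, 456 moved and 6 reversed. A higher minimum tests fewer genes and a lower one more; for the other settings the cause was not tested. Leaving out deep barcodes or the mural-like cluster, and all alternatives for the splits and the astrocyte comparison, were chosen after seeing the data. No paired analysis was possible because each group has 1 library.

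Depth limits what single members show: at a median of 11200.5 UMIs, Cspg4, at 58.5 CPM over all members, had a UMI in 34.9% of them. Intervals and limits cover counting error only, and nothing measures the spread between embryos.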

Other observations

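Some lists not described above also set members apart from other barcodes of their library. Of the list of neurotransmitter receptors, channels and synapse genes, 6 of 21 were higher and 3 lower, with Dscam, a cell adhesion molecule, at 23.5 and 1.93 CPM, the potassium channel Kcnd2 at 63.4 and 9.54 CPM, Lrrtm3 at 24.5 and 2.97 CPM and the glutamate receptor subunit Grin3a at 30.4 and 8.51 CPM. The migration and guidance list had 0 of 14 higher and 5 lower, among them the chemokine receptors Cxcr4 (8.77 and 32.8 CPM) and Ackr3 (30.7 and 70.4 CPM) and the guidance receptors Nrp1 (15.2 and 40.9 CPM) and Robo2 (29.1 and 71.8 CPM). Cholesterol synthesis genes were past the fold in 0 of 21, with a median log2 ratio of -0.22.

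Bpgm, an enzyme of red cell glycolysis, stood at 149 CPM in members and 57.3 CPM in others. The erythroid markers Hbb-y, Alas2 and Slc4a1 had no UMI in members, and Hbb-y and Slc4a1 had none in the other barcodes either. In the library labelled cortex E18.5 the log2 ratio of Bpgm in members over others was 1.54. Of the immediate early and dissociation list, 2 of 11 genes were higher, Egr1 (204 and 81.3 CPM) and Ier3 (22.4 and 10.2 CPM), and 0 lower.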
